A study of Mus musculus with 27 samples.

Results

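The genes of motile cilia were followed through RNA-seq of lung cells from mice with and without lung tumours. They were chosen by symbol alone: the families written Dnah, Dnaic, Dnai, Dnali, Rsph and Tekt followed by a number, plus 14 genes named one by one. Of the 16024 genes in the table, 23 met this rule, 13 through the family names and 10 of the 14 named singly. The 23 genes were Foxj1, Rfx2, Rfx3, Dnaic1, Dnaic2, Dnali1, Ccdc39, Ccdc40, Ccdc113, Zmynd10, Rsph1, Rsph3b, Rsph4a, Rsph6a, Rsph9, Spag16, Spag17, Tekt1, Tekt2, Tekt3, Tekt4, Tekt5 and Tppp3. The axonemal dynein heavy chains, Spag6, Hydin, Cfap126 and Mcidas were not analysed here.

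All mice were C57BL/6. Tumour lungs were collected 20 to 25 days after HKP1 cells, a mouse lung cancer cell line, had been injected through the tail vein, and WT lungs carried no tumour (the injection text stands on the WT labels too). Each lung was dissociated and either sorted or taken whole, giving 27 libraries in 10 groups. Epithelial cells were sorted as Epcam+CD11b-CD11c- (3 tumour and 3 WT libraries), and total lung cells were unsorted (3 and 3). Neutrophils were CD11b+Ly6G+ (3 and 3) and monocytes CD11b+Ly6C+ (2 and 2). Macrophages were CD11c+CD11b+ from tumour lungs (3) and CD11c+CD11b- from WT lungs (2), so the gate and the tumour cannot be told apart there. The study set each cell preparation of tumour lungs against its WT counterpart. An Epcam gate can take tumour cells as well as host epithelium, and their shares are not given in the sources used here. Nor do the labels say whether libraries came from separate mice, so p-values measure the spread between these libraries only.

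Motile cilia are the beating hairs of the multiciliated cells that line the airways and move mucus. Their core, the axoneme, is a ring of microtubule doublets around a central pair; dynein arms pull neighbouring doublets past each other, and radial spokes pass control from the central pair to the arms. Foxj1 is the master transcription factor of this programme, Rfx factors bind X-box elements in ciliary promoters, and a multiciliated cell makes the axonemal parts together. Foxj1 and Tppp3 are used as markers of ciliated cells.

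Values are FPKM, fragments mapped to a gene divided by its transcript length and by the mapped fragments of the library, so levels of different genes are compared per length. The files held no counts, so depth per library is unknown, and the FPKM of a library summed to between 346550 and 520541. The epithelial libraries showed the sorted epitope: Epcam and Cdh1 together stood at 264 to 294 FPKM in all 6, against at most 64.1 FPKM in any myeloid library. Summed over 6 genes, leukocyte markers stood at 56.1 to 153 FPKM in epithelial libraries and at 823 to 2213 FPKM in myeloid ones. Of 4 male germ cell genes, from the other cells with motile axonemes, the sum never exceeded 0.111 FPKM.

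The members fell into 3 sets by where they were expressed. For 16 genes the epithelial libraries were highest: Foxj1, Dnaic1, Dnaic2, Dnali1, Ccdc39, Ccdc40, Ccdc113, Zmynd10, Rsph1, Rsph4a, Rsph9, Spag16, Spag17, Tekt1, Tekt2 and Tekt4. In 15 of them every total lung and myeloid library lay below the lowest epithelial library; Spag16 had 1 exception, a WT total lung library at 0.728 FPKM against an epithelial minimum of 0.523. Another 4 genes, Rfx2, Rfx3, Rsph3b and Tppp3, were expressed in epithelial and myeloid cells alike. The last 3, Rsph6a, Tekt3 and Tekt5, did not reach 1 FPKM in 2 of the 12 epithelial and total lung libraries. Tekt3 reached 0.568 and Tekt5 1.15 FPKM at most, both in epithelial libraries, while Rsph6a was listed at 0 in all 6 epithelial libraries and reached 0.27 FPKM in 1 monocyte library.

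**Figure D1:**
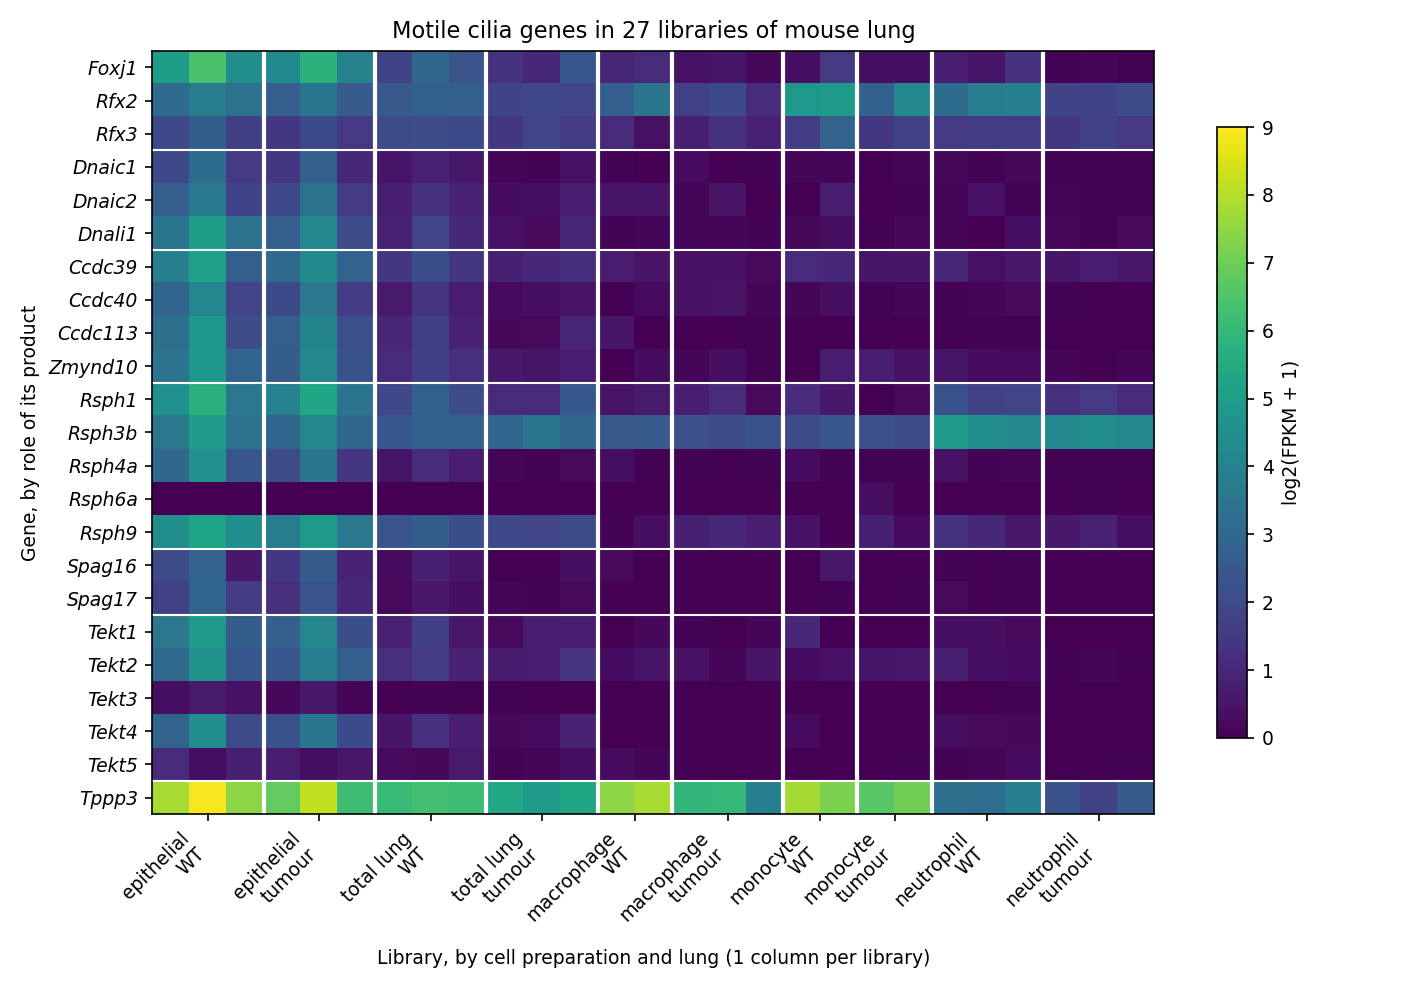
Colour gives log2(FPKM + 1) of the 23 genes (rows, by role) in the 27 libraries (columns, by cell preparation and lung). Most rows from dynein arms to tektins are brighter in the 6 epithelial columns than elsewhere, Rsph6a, Tekt3 and Tekt5 are dark throughout, and Rfx2, Rfx3, Rsph3b and Tppp3 are also bright in myeloid columns.

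The 2 marker genes of ciliated cells were checked against the preparations. Foxj1 separated the preparations, with 15.1 to 84.0 FPKM in epithelial libraries, 0.981 to 7.28 in total lung and 0.0356 to 1.89 in the 15 myeloid libraries. Tppp3, which encodes a tubulin-binding protein, did not. It stood at 174 and 224 FPKM in WT macrophages and at 219 and 149 FPKM in WT monocytes, within the 73.4 to 483 FPKM of the epithelial libraries. So Foxj1 marked the epithelial libraries as holding ciliated cell RNA, and Tppp3 was not particular to them.

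Promoters of the members were read from RefSeq (GRCm38.p6), which gave a start for 19 of the 23 genes, over the 250 bases before each start. The sequence searched was the X-box, the element that Rfx proteins bind, because most of these genes varied together from library to library. It was spelled as the half-sites GTTGC and GNNAC (N is any base), 3 or 4 bases apart, on either strand, and the spelling was settled after members' promoters had been looked at. Of the 19 genes, 6 held a match (Dnaic1, Dnaic2, Spag16, Tekt1, Tekt2 and Tekt4), against 2.99% of 27025 genes in the same window. With the spacer of 3 it was in 1.42% of genes and with 4 in 1.6%. Windows of 100 bases are shown for 5 of the 6 because they carry the match clear of the gene's annotated exons. Capitals mark the match, and each window is written 5′ to 3′ on the gene's strand. The windows of Tekt1 and Tekt4 lie before the RefSeq start used but inside the annotated span of the gene. Dnaic2 is chr11:114727308-114727407 (plus), Spag16 chr1:69826801-69826900 (plus), Tekt1 chr11:72361883-72361982 (minus), Tekt2 chr4:126325689-126325788 (minus) and Tekt4 chr17:25471487-25471586 (plus).
Dnaic2: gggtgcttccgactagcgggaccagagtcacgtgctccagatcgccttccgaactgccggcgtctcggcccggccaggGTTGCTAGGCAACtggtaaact
Spag16: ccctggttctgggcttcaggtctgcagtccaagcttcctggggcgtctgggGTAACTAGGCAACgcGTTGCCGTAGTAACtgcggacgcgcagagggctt
Tekt1: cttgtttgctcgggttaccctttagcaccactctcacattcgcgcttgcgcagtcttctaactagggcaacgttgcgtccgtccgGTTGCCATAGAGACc
Tekt2: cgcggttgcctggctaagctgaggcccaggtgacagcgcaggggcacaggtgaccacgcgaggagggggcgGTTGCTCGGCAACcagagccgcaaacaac
Tekt4: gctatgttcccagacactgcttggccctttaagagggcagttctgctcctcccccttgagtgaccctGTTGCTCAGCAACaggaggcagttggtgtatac
Spag16 held both spacers, side by side without overlap. The RFX half-site GTTGCC, which can lie inside an X-box, was in 6 of 19 members' windows and in 11.8% of all genes. A forkhead core, TGTTTAC, was in the window of 1 member (Tekt3) and of 3.54% of genes. These matches describe letters in a window and were not tested as binding sites.

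Foxj1 (chromosome 11, 116330704 to 116335399, minus strand, GRCm38) stood at 31.4, 84 and 20.9 FPKM in WT epithelial libraries 8, 9 and 10, numbered as in their titles. In tumour epithelial libraries 9, 10 and 11 it stood at 18.7, 54.2 and 15.1 FPKM. The 2 groups overlapped, and within each group a single library, WT 9 and tumour 10, stood well above the next. Rfx2, an X-box binding factor, read 7.81, 13.2 and 9.2 FPKM in WT and 5.38, 10.2 and 4.99 FPKM in tumour epithelium. Rfx3, its relative, was lower at 2.95, 5.33 and 2.23 and 1.76, 3.05 and 1.81 FPKM. Both were highest in WT 9 and tumour 10, like Foxj1, but their lowest libraries differed: Rfx2 was lowest in WT 8 and tumour 11, and Rfx3 in WT 10 and tumour 9.

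The dynein arm genes showed the same libraries on top. Dnaic1 and Dnaic2 encode intermediate chains of the outer arm; Dnaic1 stood at 2.99, 7.98 and 1.89 FPKM in WT and 1.66, 5.72 and 1.03 FPKM in tumour epithelium. For Dnaic2 the values were 5.44, 12.4 and 2.49 FPKM and 2.97, 9.62 and 1.85 FPKM. Dnali1, a light intermediate chain of inner arms, had 10.4, 31.9 and 9.14 FPKM in WT and 5.4, 17.5 and 3.16 FPKM in tumour libraries. The values of all 3 genes overlapped between tumour and WT lungs, and Dnali1 was the highest of the 3 genes in each of the 6 libraries.

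Ccdc39 and Ccdc40 form the ruler that sets the spacing of arms and spokes along the doublet. Ccdc39 read 14.1, 32.5 and 5.66 FPKM in WT and 7.47, 18.4 and 6.31 FPKM in tumour epithelium. Ccdc40 was lower in every library, at 6.74, 16.2 and 2.69 and 3.1, 10.7 and 2.11 FPKM. Ccdc113, a coiled-coil protein of the axoneme and ciliary base, stood at 8.93, 25.4 and 3.37 FPKM in WT and 5.56, 15.6 and 3.58 FPKM in tumour libraries. Zmynd10, a cytoplasmic factor needed to assemble dynein arms, stood at 9.82, 26.2 and 6.55 and 5.25, 17 and 3.8 FPKM. In each of these 4 genes WT library 9 and tumour library 10 were the highest of their groups.

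Among radial spoke genes, Rsph1, Rsph4a and Rsph9 encode proteins of the spoke head. Rsph1 was the most abundant epithelial-high axonemal gene in 4 of the 6 libraries, at 22.3, 52.4 and 11 FPKM in WT and 14.9, 39 and 10 FPKM in tumour epithelium. Rsph9 was close to it at 20.6, 36.5 and 21 and 13.1, 28.6 and 11 FPKM, and Rsph4a lower at 6.78, 22.5 and 4.3 and 3.25, 10.6 and 1.71 FPKM. Rsph3b, a spoke stalk gene, read 11.1, 30.8 and 9.51 FPKM and 6.61, 16.7 and 7.0 FPKM. Reads of Rsph3b could be shared with its near-identical copy Rsph3a, so its level is uncertain. The spread between libraries of 1 group exceeded the difference between groups for all 4.

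The central pair genes, whose products sit on the central microtubules, were among the lowest of the expressed set. Spag17 stood at 2.41, 6.52 and 1.94 FPKM in WT and 1.3, 4.01 and 1.05 FPKM in tumour epithelium, and Spag16 at 3.18, 6.24 and 0.523 and 1.68, 5.16 and 0.868 FPKM. Tektins are filament proteins inside the doublet wall. Tekt1 read 10.9, 27.9 and 5.32 FPKM in WT and 5.78, 16.1 and 3.44 FPKM in tumour libraries, Tekt2 7.42, 23.9 and 4.38 and 4.37, 13.3 and 5.45 FPKM, and Tekt4 6.33, 20.1 and 3.21 and 3.82, 10.6 and 3.11 FPKM. These 3 tektins were within a few-fold of one another in each library, while Tekt3 and Tekt5 stayed low throughout.

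In the epithelial libraries the expressed genes moved together. WT epithelial library 9 was the highest of its group for 20 of the 20 members at 1 FPKM or more, and for 33.3% of all genes at that level. Tumour epithelial library 10 was the highest for 20 of 20 members and for 34.3% of all genes. The lowest was WT library 10 in 18 members and tumour library 11 in 17. Of the members left out as low, Tekt5 went the other way, lowest in WT library 9 (0.27 FPKM) and tumour library 10 (0.255 FPKM). Tekt3 was highest in both. The median range within a group was 1.95 (log2) over the members in WT and 1.75 in tumour epithelium, against 0.40 and 0.38 over all genes. In total lung, WT library 12 was the highest for 11 of 11 members and for 35.6% of all genes. In tumour total lung the 7 members at 1 FPKM or more were split: 1 was highest in library 12, 3 in 13 and 3 in 14. Their median range there was 0.51, which 25.9% of all genes reached. The 3 epithelial-high genes among them, Foxj1, Rsph1 and Rsph9, were all highest in library 14 and lowest in 13. Of all genes 32.2% were highest in 14 and 38.8% lowest in 13. The median range of these 3 genes was 1.39. The libraries that stood highest had no common feature on their labels. Summed club cell markers, secretory cells of the same airways, were 9900, 13190 and 2689 FPKM in WT epithelial libraries 8, 9 and 10, the same order as Foxj1. In tumour libraries 9, 10 and 11 they were 1634, 2385 and 2399 FPKM, which is another order than that of Foxj1. Most of these sums was Scgb1a1, at 1521, 2082 and 2252 FPKM, and single markers differed. Cyp2f2, at 41.4, 173 and 24.8 FPKM, had the order of Foxj1. Aldh1a1, at 29.3, 87.1 and 30.3 FPKM, was also highest in tumour library 10. Scgb1a1, Scgb3a2 and Scgb3a1 were highest in tumour library 11. The part of airway content in these levels was not tested. In bulk samples fewer ciliated cells and less RNA per ciliated cell cannot be told apart.

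**Figure D2:**
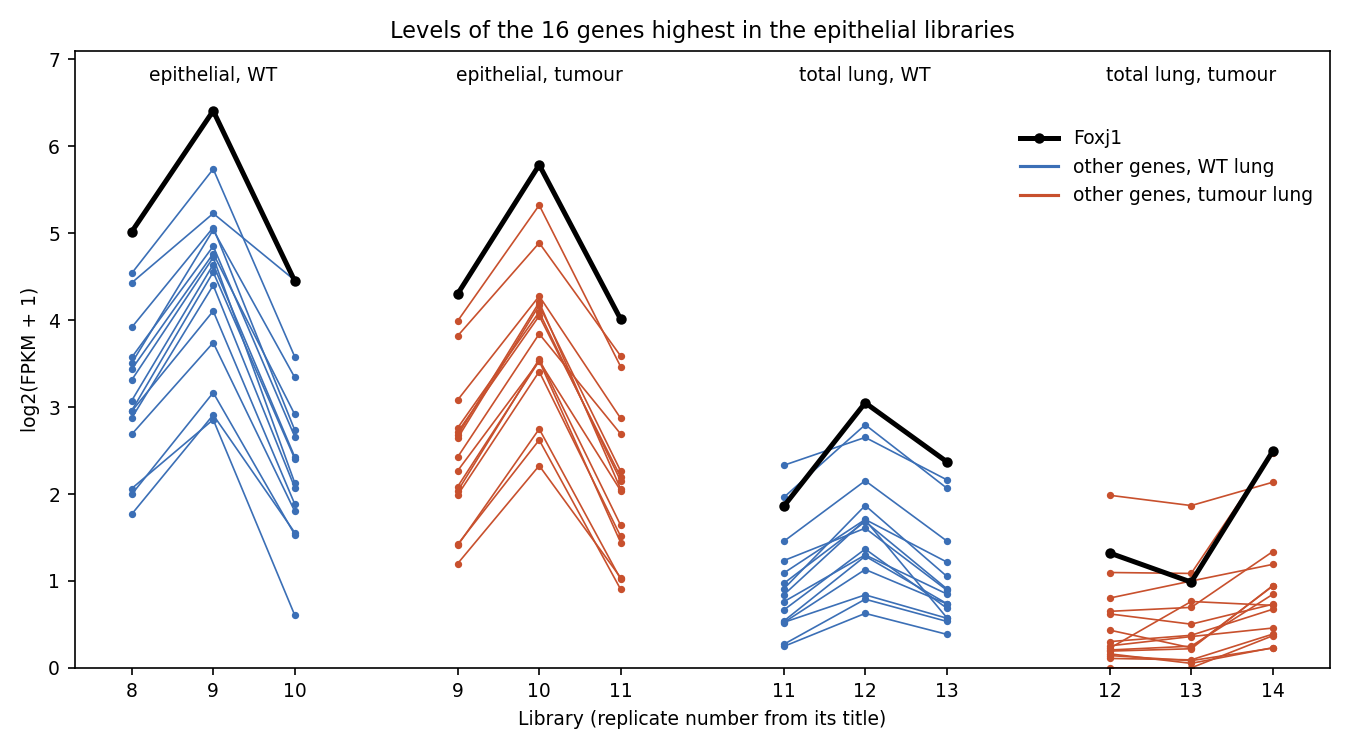
Each line joins the log2(FPKM + 1) values of 1 of the 16 epithelial-high genes over the libraries of a group, with Foxj1 in black; library numbers carry no order. WT epithelial library 9, tumour epithelial library 10 and WT total lung library 12 are the highest of their groups, and total lung libraries lie below the epithelial ones. Most lines of tumour total lung are highest in library 14, though not that of Tekt1.

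Dividing by Foxj1 narrowed this spread. Over the 6 epithelial libraries the highest level was a median 6.57 times the lowest for the 19 other members, and 1.66 times the lowest after division by the Foxj1 of the same library. The range narrowed for 18 of 19 members and for 7.24% of 10673 genes at 0.5 FPKM or more in all 6 libraries. Foxj1 itself ranged 5.56 times and all genes a median 1.86 times. Division by Foxj1 must widen a gene with a steady level, so the share over all genes was largely set beforehand. Zmynd10 was the steadiest, at 0.251 to 0.314 of Foxj1, and Spag17 followed at 0.0693 to 0.0930. Tekt1 ran from 0.227 to 0.347 and Rsph1 from 0.525 to 0.796 of Foxj1. The exception was Rfx2, whose range was 2.64 times as a level and 2.81 times relative to Foxj1. Spag16 kept the widest relative range, 4.04 times, with its lowest value at 0.523 FPKM in WT library 10. Other cilium genes, from lists chosen with results of these data known, gave the same count for 63 of 70 axonemal genes (90%). It was 70% of 10 dynein arm assembly factors, 26.7% of 15 regulators of multiciliated cells and centriole amplification, 24% of 25 intraflagellar transport genes and 26.9% of 26 BBSome and transition zone genes. The last 2 lists serve primary cilia too, while the regulators, at a like share, include genes of multiciliated cells. The median level range was 2.47 times for the regulators, 2.06 for intraflagellar transport and 2.09 for the BBSome and transition zone. With ranges so far below that of Foxj1, their low shares were largely set beforehand too. Members of 1 library share its cells and scaling, so these shares are descriptions.

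**Figure D3:**
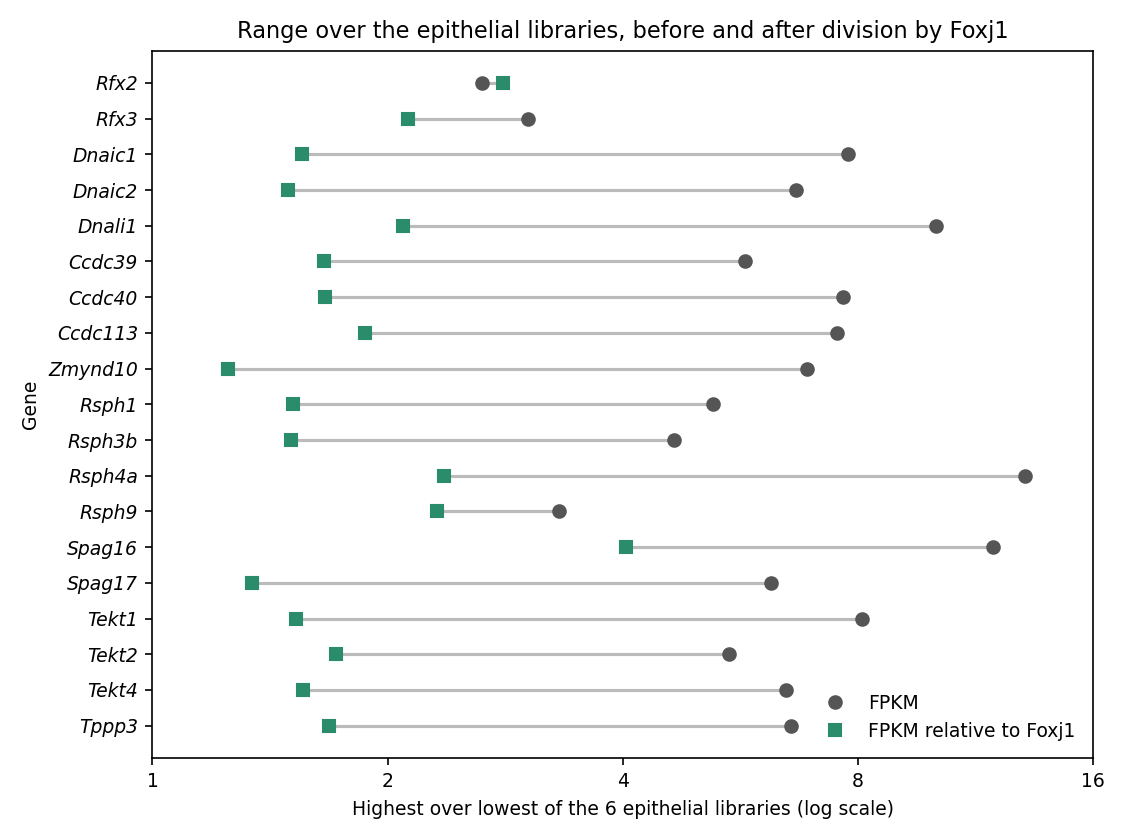
For 19 members, circles give the highest over the lowest FPKM of the 6 epithelial libraries and squares the same after division by Foxj1, on a log axis. Squares lie left of circles for 18 genes, and only Rfx2 is the other way round.

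Tumour and WT epithelium were compared to ask whether the cilia genes differ between them. No member passed the test. With limma on log2(FPKM + 1) and Benjamini-Hochberg adjustment over 11823 genes, 14.9% of genes were called higher, 8.89% lower and 23.8% in either direction, and 0 of 20 members tested were called. The lowest adjusted p of a member was 0.219, and 0 of the 20 had an unadjusted p under 0.05, against 4826 genes. All 20 differences had a negative sign, from -0.98 (Dnali1) to -0.19 (Spag16) with a median of -0.54, beside a median of 0.01 over all genes. Since the genes move together by library, the 20 signs are not 20 separate observations. Foxj1 averaged 29.4 ± 21.6 FPKM (SD, n = 3) in tumour and 45.4 ± 33.8 FPKM (SD, n = 3) in WT epithelium, a log2 difference of -0.59 (SE 0.61, adjusted p = 0.489) with a 95% interval of -2.02 to 0.83. For Dnali1 the difference was -0.98 (SE 0.64, adjusted p = 0.282) and for Tppp3 -0.98 (SE 0.56, adjusted p = 0.227). The groups of 0 members lay apart, against 25.5% of genes apart with tumour higher and 21% with tumour lower.

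Calls or signs changed when tumour library 10, tumour library 11 or WT library 9 was left out. Without tumour library 10, Rfx2 (log2 -0.81, adjusted p = 0.0396), Rsph9 (-1.0, 0.0298) and Tppp3 (-1.53, 0.0368) were called lower. These 3 of 20 members lay near the 15.3% of all genes called lower in that fit. With all libraries that share was 8.89%. The median over the 20 members was -1.0 without tumour library 10. Without WT library 9, 7 members changed sign to between 0.06 (Dnaic2) and 0.31 (Spag16), and the median was -0.08. Without tumour library 11, Rsph1 (0.04) and Spag16 (0.18) changed sign. Markers of other cells moved in both directions. Endothelial markers, which the Epcam gate should leave out, summed to 111 to 239 FPKM in WT and 6.52 to 34.8 FPKM in tumour libraries and 6 of 6 were lower. Alveolar type I markers were lower for 3 of 6. Club cell markers, 0 of 5 called, summed to 2689 to 13190 FPKM in WT and 1634 to 2399 FPKM in tumour libraries. Of 7 alveolar type II markers 0 were called lower and 2 higher. The 5 listed above 0 in every group summed to 6186 to 8751 FPKM in WT and 1479 to 5759 FPKM in tumour libraries. The 2 called higher, Sftpa1 and Slc34a2, were listed at 0 in all 3 WT libraries. Also called higher in tumour were Msln of mesothelium (5.98, log2), Agr2 of goblet cells (4.10) and Krt14 of basal cells (3.19). So were the myeloid genes Itgax (1.95) and Cd68 (1.8). These further calls were 1 of 6 fibroblast and mesothelial, 1 of 2 goblet, 1 of 2 basal and 2 of 6 leukocyte markers tested. In the first and last of these lists 1 marker was called lower. Spdef of goblet cells stood at 1.71, 2.75 and 2.61 FPKM in WT and 0.67, 1.96 and 1.32 FPKM in tumour libraries. Krt5 of basal cells stood at 0.0565, 2.19 and 3.96 and 0.427, 1.31 and 0.0102 FPKM. The part of other cells in the cilia values was not tested.

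In total lung cells 5 of 11 members tested were called lower in tumour lungs and 0 higher, where 20.4% of 11747 genes were called lower and 22.1% higher. Rfx2, Rfx3, Ccdc39, Zmynd10 and Tppp3 were the 5. The groups lay apart with tumour lower for 6 members and with tumour higher for 1 (Rsph3b), against 27.6% and 28.2% of all genes. The median log2 difference was -0.72, beside -0.01 over all genes. Of the 11, 4 (Dnali1, Ccdc39, Zmynd10 and Tekt2) reached the 1 FPKM filter in WT libraries alone and so could hardly be found higher in tumour. Among the 5 called these were Ccdc39 and Zmynd10, so neither these calls nor the count supports a fall. With no filter Ccdc39 was lost (adjusted p = 0.0518). The other 9 expressed members did not pass the filter.

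Tppp3 stood at 67, 77.1 and 73.3 FPKM in WT total lung libraries 11, 12 and 13 and at 40.6, 28.1 and 38.5 FPKM in tumour libraries 12, 13 and 14. All WT values lay above all tumour values, and the log2 difference was -1.01 (SE 0.15, adjusted p = 0.00183). Rfx2 read 4.71, 5.96 and 5.52 FPKM in WT and 2.55, 2.79 and 2.7 FPKM in tumour libraries, again without overlap, with a difference of -0.80 (SE 0.12, adjusted p = 0.00217). Both kept their call whichever library was left out, and with all 10 groups fitted together Tppp3 did not pass (adjusted p = 0.0962). As both are also expressed in myeloid cells, their total lung level adds several sources.

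For genes that were epithelial-high, the comparison rested on low levels. Zmynd10 read 1.13, 2.26 and 1.33 FPKM in WT and 0.537, 0.416 and 0.66 FPKM in tumour libraries, a difference of -0.72 (SE 0.20, adjusted p = 0.0217). Ccdc39 read 1.74, 3.45 and 1.75 and 0.744, 0.998 and 1.28 FPKM, with -0.69 (SE 0.22, adjusted p = 0.0406). The groups of both lay apart, and both calls ended when single libraries were left out. Zmynd10 was lost without tumour 12 (adjusted p = 0.0549), tumour 13 (0.0548) or WT 12 (0.0629). Ccdc39 was lost without any library but WT 13, at adjusted p from 0.0508 to 0.114. Rfx3, at 3.2, 3.32 and 3.07 and 1.77, 2.65 and 2.08 FPKM with -0.42 (SE 0.14, adjusted p = 0.0476), was lost in 5 of 6 cases, at 0.088 to 0.13, and kept without tumour 13.

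Foxj1 itself stood at 2.62, 7.28 and 4.18 FPKM in WT and 1.5, 0.981 and 4.62 FPKM in tumour total lung. Tumour library 14 lay inside the WT range, and the difference of -0.83 (SE 0.43, adjusted p = 0.158) did not pass. Without library 14 it was -1.27 (adjusted p = 0.0313). Rsph1, at 2.89, 5.95 and 3.19 and 1.14, 1.12 and 4.56 FPKM, behaved alike, with -0.72 (SE 0.40, adjusted p = 0.183) in all libraries and -1.18 (adjusted p = 0.0178) without library 14. Dnali1 read 0.876, 2.65 and 1.08 and 0.351, 0.173 and 0.918 FPKM, a difference of -0.74 (SE 0.30, adjusted p = 0.0809). Rsph9 read 4.03, 5.28 and 3.48 and 2.96, 2.65 and 3.39 FPKM, at -0.39 (SE 0.16, adjusted p = 0.0862), and Tekt2 1.35, 2.05 and 0.859 and 0.569, 0.619 and 1.53 FPKM, at -0.35 (SE 0.26, adjusted p = 0.301). Rsph3b went the other way, from 4.58, 5.99 and 5.93 FPKM in WT to 6.6, 10.1 and 7.18 FPKM in tumour, at 0.45 (SE 0.17, adjusted p = 0.0691).

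Markers of other cells moved beside these values, in both directions. Summed club cell markers were 2436, 7572 and 865 FPKM in WT total lung libraries 11, 12 and 13 and 254, 103 and 1376 FPKM in tumour libraries 12, 13 and 14. WT 12 and tumour 14, the highest in club cell markers, were also the highest in Foxj1. Of 5 club cell markers 2 were called lower, of 9 alveolar type II markers 8, and of 6 endothelial markers 6. The other alveolar type II marker, Sftpc, was called higher, with all 3 WT libraries listed at 0. Of 6 leukocyte markers 3 were called higher, the myeloid genes Cd68 (2.76, log2), Itgax (1.92) and Itgam (1.65), and 1 lower. The part of a changed cell mix in the cilia genes was not tested.

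**Figure D4:**
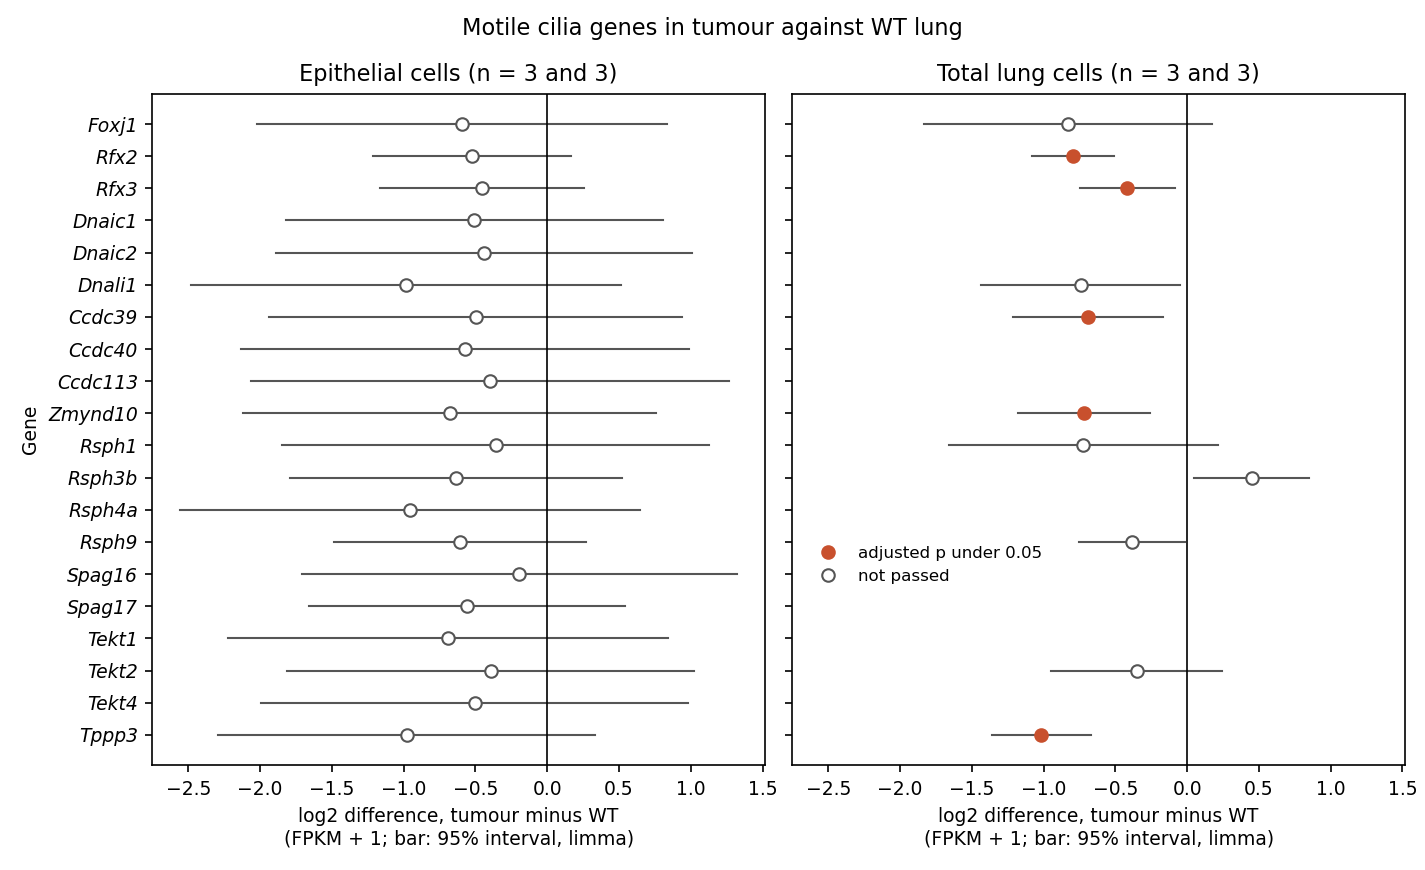
Points give the log2 difference of tumour minus WT for members tested in epithelial cells (left, 20 genes) and total lung cells (right, 11 genes), bars the 95% interval, and filled points those with adjusted p under 0.05. On the left every interval crosses 0; on the right 5 genes are filled, all below 0.

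The difference between the 2 tumour effects was fitted in 1 model with an interaction term. Among 12419 genes 10.7% were called, 5.84% with the epithelial effect higher and 4.91% with it lower, and 0 of 20 members. No member had an unadjusted p under 0.05, against 3482 genes. The median difference over the members was -0.03 (all genes 0.05), from -1.09 for Rsph3b (adjusted p = 0.243) to 0.36 for Rsph1. Although 5 members passed in total lung and 0 in epithelium, a difference between the 2 effects was not shown. For Foxj1 the interval ran from -1.59 to 2.06.

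Sorted epithelium against unsorted lung shows how far the gate enriched the cilia genes. In WT lungs 18 of 20 members were higher in epithelial cells, where 31.9% of 11895 genes were called higher. In tumour lungs it was 18 of 20 against 29.5% of 11877. In WT lungs 9 of the 20 and in tumour lungs 13 reached the filter through the epithelial libraries alone and had to differ, so these counts are descriptions. Foxj1 was 9.68 times higher in WT epithelium by mean FPKM (log2 2.87 (SE 0.51, adjusted p = 0.00191)) and 12.4 times in tumour epithelium (3.10 (SE 0.55, adjusted p = 0.0034)). Rsph9 gave 2.32 (SE 0.24, adjusted p = 1.4e-04) in WT and 2.10 (SE 0.33, adjusted p = 0.00194) in tumour lungs. The median log2 difference was 2.17 in WT and 2.10 in tumour lungs. Rfx3 was the exception in both, at 0.04 (SE 0.25, adjusted p = 0.888) and 0.00 (SE 0.21, adjusted p = 0.987). Spag16 missed the threshold in WT lungs, at 1.31 (SE 0.52, adjusted p = 0.0577), and passed without WT epithelial library 10 (1.93, adjusted p = 0.00168). Rsph3b passed in WT lungs at 1.30 (SE 0.39, adjusted p = 0.0213), though not without WT total library 11 (adjusted p = 0.0685), and not in tumour lungs, at 0.22 (SE 0.34, adjusted p = 0.617). In tumour lungs Dnaic1 and Spag16, both at most 0.308 FPKM in total lung, lost their calls when total lung libraries were left out. For Dnaic1 the adjusted p was 0.0537 to 0.0664 without tumour 12, 13 or 14, and for Spag16 it was 0.066 without tumour 12 and 0.0654 without tumour 13.

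Rfx2 was detected in all 27 libraries, from 1.21 to 28.8 FPKM. Its order by group mean ran from WT monocytes through tumour monocytes, WT neutrophils, WT epithelium, WT macrophages, tumour epithelium, WT total lung, tumour neutrophils and tumour total lung to tumour macrophages. WT monocytes stood at 26.8 and 28.8 FPKM, above every other library of the series. Below them, neighbours in this order overlapped in their ranges, except WT total lung against tumour neutrophils.

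In neutrophils 33.3% of 9349 genes were called higher and 25.8% lower, and of 6 members tested 3 were called lower and 0 higher. Of the 6, Rsph9 reached the filter in WT libraries alone and could hardly be found higher in tumour. Rfx2 stood at 8.07, 13.1 and 13.7 FPKM in WT libraries 5, 6 and 7 and at 2.59, 2.47 and 3.34 FPKM in tumour libraries 6, 7 and 8. For Rfx2, as for the other genes called here, the groups did not overlap, with tumour lower, as in 28% of all genes tested. Its log2 difference was -1.71 (SE 0.19, adjusted p = 1.6e-04). Tppp3 read 9.03, 8.63 and 13.9 FPKM and 3.77, 2.44 and 5.16 FPKM, a difference of -1.28 (SE 0.24, adjusted p = 0.00184). Rsph1 stood at 3.84, 2.32 and 2.69 and 1.32, 1.83 and 1.15 FPKM, at -0.69 (SE 0.18, adjusted p = 0.0090). Its call ended with all 10 groups fitted together (adjusted p = 0.215). Rfx3, Rsph3b and Rsph9 were not called, at 0.01 (SE 0.13, adjusted p = 0.97), -0.25 (SE 0.18, adjusted p = 0.251) and -0.33 (SE 0.21, adjusted p = 0.208). Rsph9 passed without WT library 7 (-0.53, adjusted p = 0.0407), under the same limit of the filter.

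Markers of club, alveolar and endothelial cells were mostly lower in the same tumour neutrophil libraries, while Epcam and Cdh1 were not. Summed, Epcam and Cdh1 stood at 3.22, 1.23 and 4.43 FPKM in WT and 7.92, 4.11 and 8.79 FPKM in tumour neutrophils. Of these 2 genes 1 was called higher and 0 lower. Alveolar type I markers were lower for 4 of 5. Summed club cell markers were 1051, 185 and 1193 FPKM in WT and 18.0, 7.90 and 17.5 FPKM in tumour neutrophils, with 5 of 5 called lower, and 9 of 9 alveolar type II and 6 of 6 endothelial markers were lower. Foxj1 was at 0.684, 0.413 and 1.44 FPKM in WT and 0.0534, 0.0912 and 0.0356 FPKM in tumour neutrophils. Relative to Foxj1, Rfx2 was 9.46 to 31.8 in WT neutrophils and 0.157 to 0.441 in epithelial libraries. Rsph1 was 1.87 to 5.62 times Foxj1 in WT neutrophils and 0.525 to 0.796 times in epithelial ones, and Tppp3 9.63 to 20.9 against 4.86 to 8.17. For Rsph9 the ranges overlapped, at 0.333 to 2.5 in WT neutrophils and 0.435 to 1.01 in epithelial libraries. These ratios rest on the low Foxj1 of neutrophils, and the part of epithelial RNA in the neutrophil differences was not tested.

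In macrophages 20.3% of 10119 genes were called higher and 17.7% lower, and of 4 members tested 2 were lower and 0 higher. Tppp3 stood at 174 and 224 FPKM in WT and 60.1, 62.6 and 13.8 FPKM in tumour macrophages, a difference of -2.36 (SE 0.61, adjusted p = 0.0231). Rfx2 stood at 5.52 and 10.1 and 2.43, 2.97 and 1.21 FPKM, at -1.45 (SE 0.32, adjusted p = 0.012). The groups lay apart with tumour lower for 3 members (Rsph3b too), against 31.3% of all genes, and the WT group had 2 libraries. Without WT library 1 Tppp3 was lost (adjusted p = 0.0896), and without WT library 2 both were (0.126 and 0.0962). With no filter Tppp3 was lost too (0.0557). Rsph3b gave -0.37 (SE 0.14, adjusted p = 0.0701) and Rfx3 0.23 (SE 0.27, adjusted p = 0.547). Markers of other cells moved in the same comparison. Epcam was lower (-3.17, log2), while Cdh1 was not called. Cdh1 stood at 16.4 and 17.2 FPKM in WT and 19.4, 21.8 and 11.1 FPKM in tumour macrophages. Of 9 alveolar type II markers 6 were lower and 2 higher, and of 5 alveolar type I markers 3 were lower and 2 higher. Endothelial markers were lower for 5 of 6, among them Cldn5 (-2.57) and Cdh5 (-2.16). The part of other cells in the values of Tppp3 and Rfx2 was not tested.

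In monocytes no gene was called (0% of 10366), and so 0 of 5 members; by unadjusted p under 0.05 it was 2 members and 1559 genes. Rfx2 stood at 26.8 and 28.8 FPKM in WT and 6.01 and 17.4 FPKM in tumour monocytes, at -1.34 (SE 0.45, adjusted p = 0.27). Without tumour library 5, which leaves 1 tumour library that is assumed to vary like the WT ones, it was called (-2.04, adjusted p = 0.0289). Tppp3 stood at 219 and 149 and 101 and 132 FPKM, at -0.64 (SE 0.25, adjusted p = 0.321). Ccdc39, at 1.09 and 1.06 and 0.42 and 0.449 FPKM, gave -0.53 (SE 0.28, adjusted p = 0.454). It reached the filter in WT monocytes alone, so a rise could hardly be found. The groups of these 3 genes lay apart with tumour lower, against 24.6% of all genes.

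**Figure D5:**
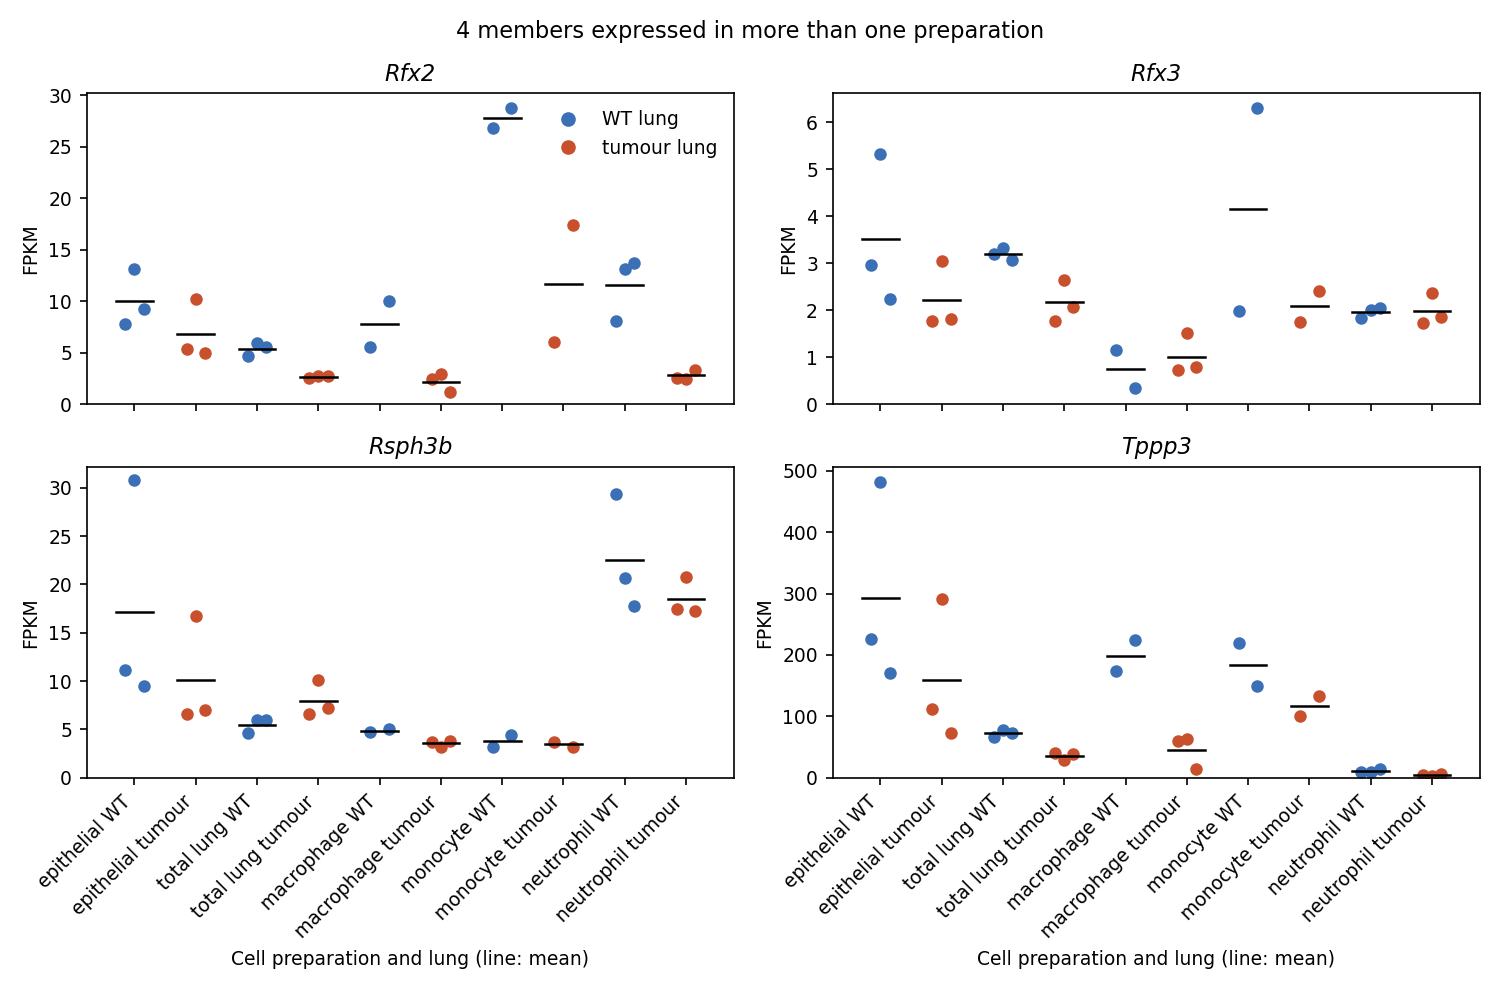
FPKM of Rfx2, Rfx3, Rsph3b and Tppp3 in each library (points, blue for WT and red for tumour lung) by group, with the mean as a line. Rfx2 is highest in WT monocytes, Rsph3b in neutrophils and 1 WT epithelial library, and Tppp3 in WT macrophages and monocytes lies within the range of the epithelial libraries.

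Rsph3b and Rfx3 complete the broad set. Rsph3b was highest by mean in neutrophils, at 29.3, 20.6 and 17.7 FPKM in WT and 17.5, 20.8 and 17.3 FPKM in tumour libraries, and at 3.13 to 5.0 FPKM in the 9 macrophage and monocyte libraries. The neutrophil and epithelial ranges overlapped. Rfx3 stayed between 0.339 and 6.31 FPKM in all 27 libraries. By contrast Ccdc113 was listed at 0 in 9 of the 15 myeloid libraries, Spag16 in 11, Spag17 in 9, and Tekt1 and Tekt4 in 8 each.

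Other genes of the cilium were counted from lists chosen with earlier results known. Of 73 axonemal genes tested in epithelium, 1 was lower and 0 higher in tumour, with a median log2 difference of -0.57. Over all genes 8.89% were lower and 14.9% higher in epithelium, and 20.4% lower and 22.1% higher in total lung, and several of the counts lie near these shares. In total lung 15 of 44 axonemal genes were lower and 1 higher, with a median of -0.61. Listed genes that reached the filter through WT libraries alone were not counted apart, so this count does not support a fall. Intraflagellar transport genes, the trains that build all cilia, gave 1 lower and 1 higher of 25 in epithelium and 4 lower and 3 higher of 22 in total lung. For the BBSome and transition zone it was 2 lower and 1 higher of 27, and 4 lower and 2 higher of 26. Dynein arm assembly factors gave 0 of 10 in epithelium and 1 higher of 8 in total lung. Regulators of multiciliated cells and centriole amplification gave 1 lower and 4 higher of 17 in epithelium, and 5 lower and 2 higher of 16 in total lung.

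Of these lists, 11 genes were called in epithelium, and 4 of the 5 with the largest differences follow. Bbs12, a chaperonin-like factor of BBSome assembly, rose from 0.786 ± 0.484 FPKM (SD, n = 3) in WT to 3.66 ± 0.978 FPKM (SD, n = 3) in tumour, a log2 difference of 1.40 (SE 0.28, adjusted p = 0.0186). Plk4, the kinase that starts centriole duplication, rose by 1.22 (SE 0.25, adjusted p = 0.02), and Tfdp1, a partner of E2F factors in the cell cycle, by 1.12 (SE 0.21, adjusted p = 0.0152). Ift81, of the transport trains, fell by 1.10 (SE 0.24, adjusted p = 0.0216). In total lung 37 were called, and the 5 largest differences were all falls. Dynlrb2, a dynein light chain, fell by 1.59 (SE 0.54, adjusted p = 0.0469), and Myb, a transcription factor used early in multiciliated cells and also in blood precursors, fell by 1.22 (SE 0.35, adjusted p = 0.0267). Lrrc23, a spoke protein, fell by 1.21 (SE 0.30, adjusted p = 0.015), Ccdc108 fell by 1.08 (SE 0.31, adjusted p = 0.025) and Spata18 fell by 1.07 (SE 0.34, adjusted p = 0.0376). Ccdc108 and Spata18 averaged 0.662 and 0.37 FPKM in tumour total lung, below the 1 FPKM of the filter, so a rise could hardly be found for them.

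The genes most like the members in pattern were ranked by Pearson correlation of log2(FPKM + 1) over the 10 group means with the mean of the 20 expressed members. The first 8 of 12550 genes were Tsnaxip1, Cdhr3, Nek5, Tmem139, Ak7, Vwa3a, Osbpl6 and 1700016K19Rik, with r from 0.997 down to 0.996. Of these, Cdhr3, Ak7, Vwa3a and 1700016K19Rik stood on the axonemal list. Cdhr3 averaged 22.0 FPKM in WT and 12.8 FPKM in tumour epithelium, and Tsnaxip1 7.38 and 4.55 FPKM. Of the 10 points 2 are epithelial groups, and no correlation without them was computed. Of the first 100 genes 27 were on the cilium lists, and 41 when the ranking used the 27 libraries. The share of listed genes among all 12550 was not computed, and the lists were chosen with results of these data known.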

How the data were processed

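RNA was sequenced from 27 samples of dissociated mouse lung, sorted or whole, and the authors deposited 1 table of FPKM values for 16024 genes. Per the submitters' processing notes, CASAVA 1.8.2, TopHat2, Cufflinks and Cuffdiff were used with mm10 (GRCm38); other settings are not given in the sources used here. The deposited FPKM hold no counts, so depth is unknown and its precision is not stated. Genes at 1 FPKM or more in 2 or more of the libraries fitted were tested on log2(FPKM + 1), a pseudocount of 1 that understates changes of low genes. The test was limma 3.58.1 (R 4.3.3) with a mean-variance trend, two-sided, over the groups compared, with Benjamini-Hochberg adjustment over all genes tested and a threshold of 0.05. The tests were tried on simulated data. Figures and counts were made with Python 3.11.15 and pandas 2.3.3. Groups are the labelled cell preparation and lung, and replicate numbers come from the sample titles.

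The members and gene lists were chosen with earlier results of these data known. Values per library were given for members at 1 FPKM in 2 of the 12 epithelial and total lung libraries. From the other lists the 5 genes with the largest difference among those called were named, and 8 genes by correlation with the members. Marker lists were summed per library. Alternatives were the pseudocount, the filter, scaling by quantiles or by the upper quartile, 1 model over the 10 groups, robust moderation, a replicate block, and leaving out single libraries. Pairs of libraries of a group held at most 2 exactly equal values above 0. One gene that the naming rule picks is not reported here.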

Additional observations from a re-analysis of the deposited data

How the results depend on the processing

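Of the counts of members called, 5 were above 0, and 61 of their 72 recomputed values stayed within 1.5 times. The other 11 counts were 0, and 5 of 168 recomputed values were above 0. In epithelium 0 to 3 members were lower when a library was left out, against 0.893% to 15.3% of all genes. Under every other setting run it was 0, against 0.761% to 20%. In total lung the 5 lower members became 2 at a filter of 5 FPKM, where 19.6% of all genes were lower. Under quantile scaling 3 were lower and 1 higher (Rsph3b), against 22.3% and 21.9% of all genes. With all 10 groups fitted together 1 was lower (Rfx2), against 19.9%. When a library was left out 2 to 5 were lower, against 14% to 18.7%. Macrophages had 1 member higher with no filter. Tppp3 and Rfx2 stayed lower whichever tumour macrophage library was left out, against 13.6% to 21.2% of all genes. Without a WT macrophage library, which leaves 1, Tppp3 was lost, as given above. Monocytes had 1 lower with all 10 groups fitted. Leaving out a monocyte library leaves 1 in its group, so no count is given for it. With no filter 13.7% of all genes were higher in macrophages, and with all 10 groups fitted 5.9% were lower in monocytes. Neutrophils had 7 lower with no filter, against 19.3% of all genes. With all 10 groups fitted they had 2, against 23.9%, and Rsph1 was lost (adjusted p = 0.215). Epithelium against total lung in tumour lungs had 11 higher of 12 tested at 5 FPKM, since fewer genes entered, against 29.6% of all genes. Elsewhere the cause was not tested.

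Signs turned mostly when libraries were left out, also for members whose difference was about as large as the members' median. With libraries left out, tumour against WT epithelium ranged from -1.03 to 0.27 for Ccdc113, -1.08 to 0.083 for Ccdc39, -0.99 to 0.059 for Dnaic2, -0.89 to 0.20 for Rsph1, -0.81 to 0.31 for Spag16, -0.87 to 0.24 for Tekt2 and -1.03 to 0.14 for Tekt4. Rfx3 ranged from -0.11 to 0.32 in macrophages, -1.26 to 0.038 in monocytes and -0.086 to 0.069 in neutrophils, where it was -0.086 under quantile and -0.024 under upper-quartile scaling. Between epithelium and total lung Rfx3 ranged from -0.23 to 0.25 in WT lungs (-0.050 under upper-quartile scaling) and -0.18 to 0.11 in tumour lungs (-0.17 under quantile scaling and -0.00019 at a pseudocount of 0.1). Rsph3b ranged from -0.30 to 0.082 in monocytes and -0.18 to 0.43 between epithelium and total lung in tumour lungs.

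Same-numbered libraries of tumour and WT lungs deviated with correlations of -0.17 to 0.08, so the numbers were not read as pairs. With the replicate number as a block, 0 members were called in epithelium, 5 lower in total lung, 2 in macrophages and 2 in neutrophils. Of all genes, 0.761%, 9.69%, 19.6% and 17.8% were called lower in these fits, so a count of 0 in epithelium says little. Spag16 in epithelium was 0.29. In total lung the 5 were not those given: Ccdc39 (adjusted p = 0.0827), Rfx3 (0.254) and Zmynd10 (0.0584) were lost, and Foxj1 (-1.56, adjusted p = 0.0084), Rsph1 (0.021) and Dnali1 (0.042) were called. In neutrophils Rsph1 was lost (0.126). No such fit was made for monocytes, or for epithelium against total lung, which share no numbers.

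With no counts, low members could not be given a counting error; 9 expressed members were below the filter in total lung.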
